A study of Mus musculus with 8 samples.

Results

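Organic ion and drug transporters move charged metabolites, conjugated hormones, urate, drugs and toxins across the membranes of tubule cells. The genes examined were the protein-coding genes of the Slc22a, Slco, Slc47a, Abcb, Abcc and Abcg families that had 20 or more reads summed over 8 libraries. This rule took 56 of the 60 genes of these families listed among 17194 protein-coding genes, comprising 23 Slc22a, 8 Slco, 2 Slc47a, 8 Abcb, 9 Abcc and 6 Abcg genes. Left out were Abcc12 with 3 reads, Abcb11 and Slco1c1 with 4 each and Slco1b2 with 15, and the genes just inside were Abcg5 with 27, Slc22a27 with 36 and Abcg4 with 40 reads.

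Poly(A) RNA was sequenced from whole kidneys of 45-day-old mice, 4 libraries from Tsc1/Foxi1-dKO mice (dKO1 to dKO4) and 4 from WT mice (WT1 to WT4). The dKO animals were labelled Tsc1f/f/Aqp2 Cre/Foxi1 knockout, a genotype without Foxi1, the transcription factor of intercalated cells, and without Tsc1 in cells in which Aqp2-Cre is active, the principal cells of the collecting duct. The WT animals were labelled C57BL/6, and whether they carry a floxed Tsc1 allele or the Cre transgene is not given in the labels. The dKO label names no strain, so that a difference in genetic background could not be told apart from the genotype. The comparison asks how the kidney transcriptome of mice with this label differs from that of WT mice, and it is read here for the transporters only. The kidney was sampled whole, so that fewer cells of a type and less RNA per cell cannot be told apart.

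CPM is the read count of a gene relative to the TMM-scaled size of its library. FPKM, used where genes are compared with each other or summed over a family, also divides by gene length. Fold changes are log2 ratios with dKO on top, each with its standard error (SE). An adjusted p is that of the quasi-likelihood test of edgeR, corrected over 15912 tested genes by the Benjamini-Hochberg method, and genes were called below 0.05. Libraries held 17173194 to 24973213 reads in dKO and 14791687 to 19179034 reads in WT, and 3 reads correspond to 0.121 to 0.173 CPM in dKO and to 0.160 to 0.207 CPM in WT. Of the 56 transporter genes, 49 passed the filter on low counts, and Abcb4, Abcc8, Abcg4, Abcg5, Abcg8, Slc22a3 and Slc22a27 did not.

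A pair of dKO libraries stood apart. Foxi1 stood at 1.33 to 1.56 CPM in dKO1 to dKO3 and at 45.9 CPM in the library labelled dKO4, against 26.6 to 33.6 CPM in WT, so that the library labelled dKO4 went against its genotype label. Tsc1, which the genotype deletes only in cells with active Aqp2-Cre, stood at 43.3 to 57.6 CPM in dKO and 39.6 to 63.6 CPM in WT. Kit, a receptor of intercalated cells, followed the same order, with 2.17 to 2.74 CPM in dKO1 to dKO3 and 25.6 CPM in the library labelled dKO4, against 18.3 to 23.4 CPM in WT. The library dKO1 had 11083 reads of Xist, the RNA of the inactive X chromosome, and 0 reads of 4 Y-linked genes, whereas the other 7 libraries had at most 11 Xist reads and 2189 to 4380 Y-linked reads. By these counts dKO1 read as female and the other 7 libraries as male, though the labels give no sex. The comparison over all libraries was therefore not balanced for sex. All 10 proximal tubule markers were measured in every library. Their summed level was 14510 CPM in dKO1 and 22210 to 23900 CPM in dKO2 to dKO4, against 23790 to 26390 CPM in WT. Single markers differed, and the median log2 difference of dKO1 from the WT mean was -0.23. Acsm2 stood at 1434 CPM in dKO1, against 5554 to 6030 CPM in WT. Slc5a2 stood at 589 CPM in dKO1, against 428 to 531 CPM in WT. Counts of called transporters are therefore given with and without dKO1 and the library labelled dKO4. For single genes, values without the library labelled dKO4 are given only for some.

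In the proximal tubule, OAT and OCT proteins of the Slc22a family take organic anions and cations from blood into the cell across the basolateral membrane. MATE exchangers (Slc47a) and ABC exporters such as MRP2, MRP4, P-glycoprotein and BCRP move them on into urine, while URAT1 and other apical carriers recover urate. OATP proteins (Slco) carry bulky amphipathic anions such as steroid conjugates, bile acids, thyroid hormones and prostaglandins. Several of these genes are known to differ in level between kidneys of male and female mice, Slco1a1 being a male-biased example.

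The transporters ranged widely in level. In dKO, 9 of the 56 genes (16.1%) averaged at least 100 FPKM, against 2.50% of all protein-coding genes, and 43 (76.8%) at least 1 FPKM, where 11298 protein-coding genes (65.7%) did so. In WT, 10 (17.9%) averaged at least 100 FPKM, against 2.69% of all protein-coding genes, and 39 (69.6%) at least 1 FPKM. Slc22a12, which encodes the urate transporter URAT1, was highest, at 495 ± 218 FPKM in dKO and 718 ± 79.1 FPKM in WT (SD, n = 4 each), and ranked 39 of all protein-coding genes in WT. Slc22a6 (OAT1), Slc22a18, Slc47a1 (MATE1) and Slc22a2 (OCT2) were also high, at 141 to 329 FPKM in dKO and 206 to 381 FPKM in WT. The ABC exporters were expressed at lower levels per length. The highest of them, Abcc2 (MRP2) and Abcg2 (BCRP), averaged 28.3 and 49.6 FPKM in dKO and 56.3 and 53.9 FPKM in WT.

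**Figure D1:**
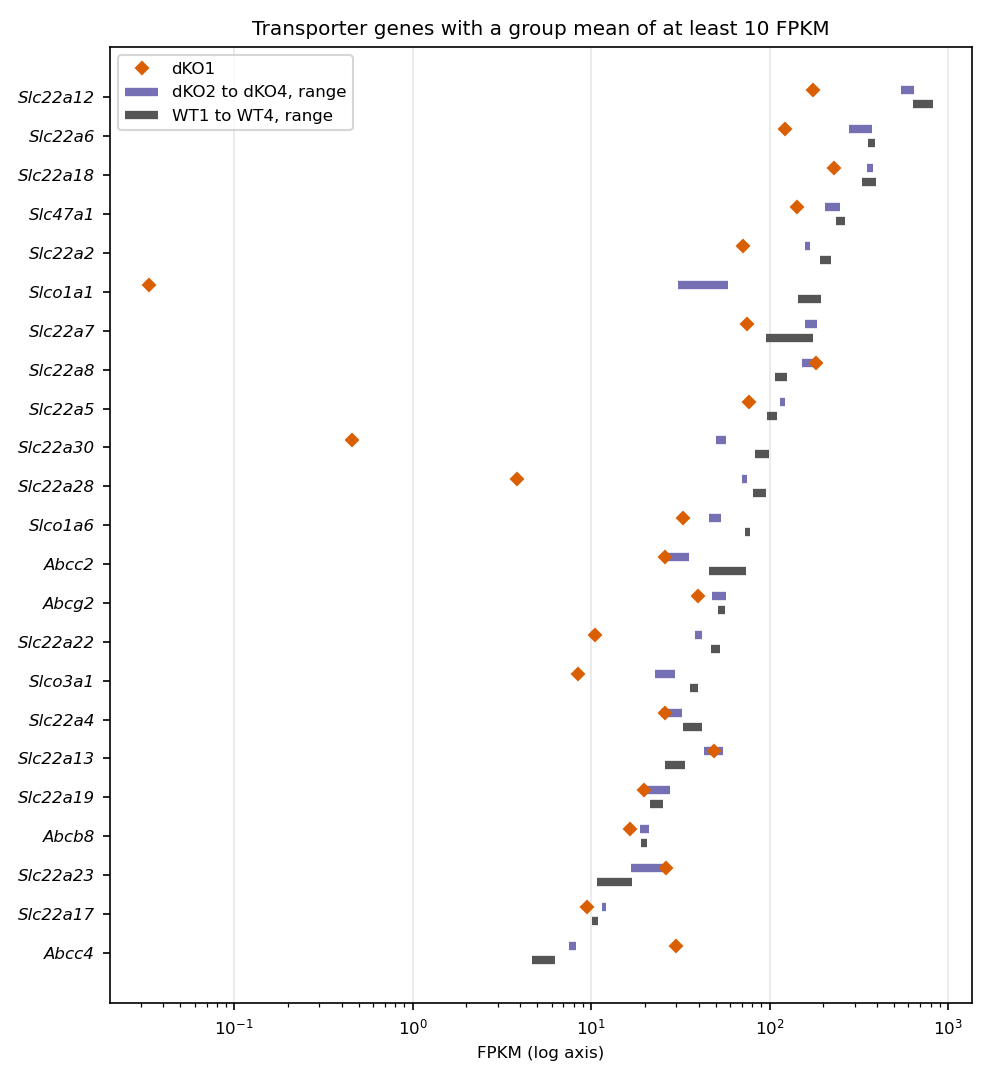
Level in FPKM (log axis) of 23 of the 25 transporter genes whose mean reached 10 FPKM in dKO or in WT, in order of the WT mean. Diamonds mark dKO1, the upper bars the range of dKO2 to dKO4 and the lower bars the range of the 4 WT libraries. Slco1a1, Slc22a30 and Slc22a28 stood at 0.0333, 0.457 and 3.84 FPKM in dKO1, below every other library.

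The summed FPKM of all 56 genes was 1672 in dKO1 and 2933 to 3097 in dKO2 to dKO4, against 3230 to 3512 in WT, so that the groups did not overlap. The Slco family showed the widest gap, with 65.8 in dKO1 and 119 to 157 in dKO2 to dKO4, against 274 to 325 in WT. Slco1a1 was the largest part of the WT sum. It stood at 0.0333 FPKM in dKO1 and 30.6 to 58.25 FPKM in dKO2 to dKO4, against 144 to 195 FPKM in WT. Slco1a4, Slco1a6 and Slco3a1 also lay below WT in every dKO library. Slco2a1 lay above WT, and Slco2b1, Slco4a1 and Slco4c1 overlapped it. The Slc22a sum was 1287 in dKO1 and 2405 to 2535 in dKO2 to dKO4, against 2475 to 2820 in WT, and the groups overlapped. The Abcb sums, 41.6 to 45.7 in dKO and 41.9 to 46.1 in WT, covered nearly the same range.

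**Figure D2:**
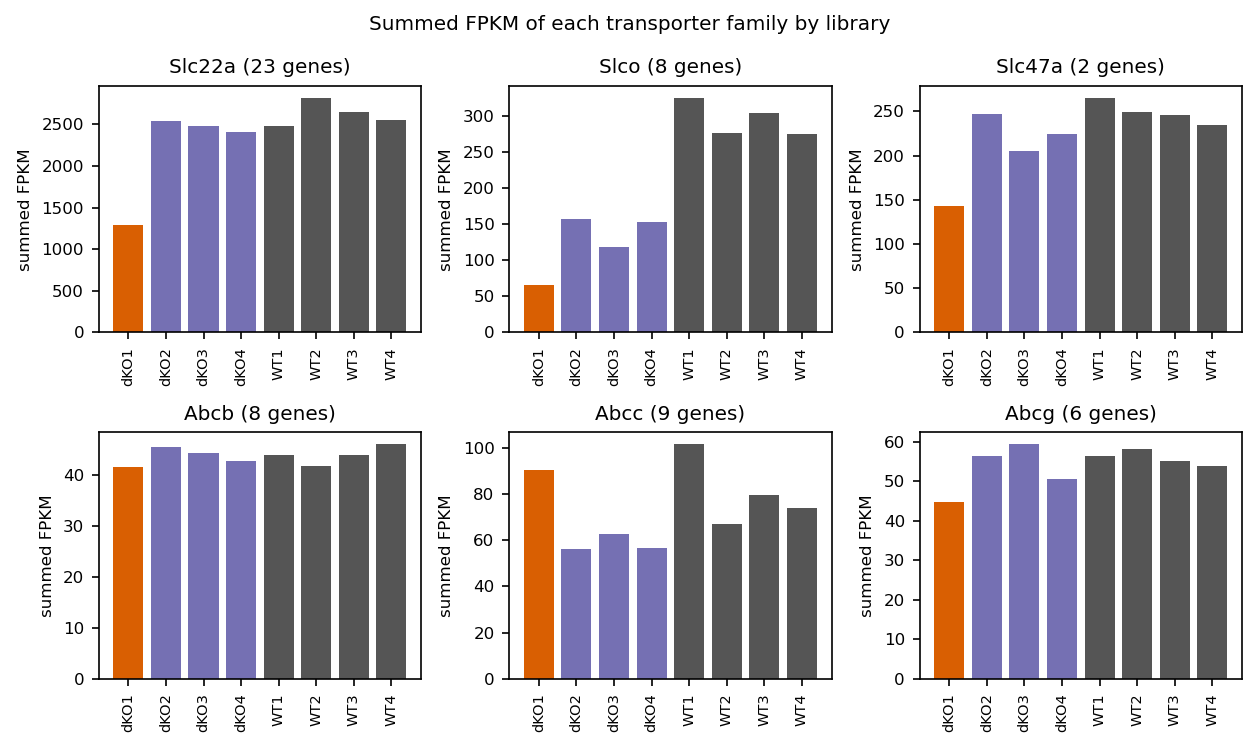
Summed FPKM of each transporter family in every library (bars from 0), dKO libraries on the left, WT on the right. The Slco bars of the 4 dKO libraries, 65.8 to 157, lie below the WT bars, 274 to 325, whereas the Abcb bars of both groups lie between 41.6 and 46.1. Slco1a1 is the largest part of the WT Slco bars.

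Over all 8 libraries, 5 of the 49 tested transporters were called (10.2%), against 2.28% of all tested genes. Slc22a13 and Slc22a8 rose, and Abcc2, Slco1a6 and Slco1a4 fell, where 1.16% and 1.12% of all genes rose and fell. The 49 fold changes were 21 positive and 28 negative with a median of -0.04, against 0.01 for all genes, and their median size was 0.43, against 0.15 for all genes. An unadjusted p under 0.05 was reached by 18 of the 49, against 16.8% of all genes. The 4 dKO libraries lay wholly above the 4 WT libraries for 9 transporters and wholly below for 10, where 6.06% of all genes lay wholly above and 6.06% wholly below, 12.1% in all. Single libraries moved the count of calls. It was 13 without dKO1, against 3.90% of all genes, with 5 higher (background 1.88%) and 8 lower (background 2.02%). It was 3 without dKO3 (background 1.57%). It was 3, 2, 1 and 2 without WT1, WT2, WT3 and WT4, where 1.39%, 0.885%, 0.870% and 0.850% of all genes were called. Without the library labelled dKO4 it was 6 of 51 tested transporters (background 2.11%), with 3 higher (0.969%) and 3 lower (1.14%). These were the 5 called over all libraries and Abcb1b. Without dKO1 and the library labelled dKO4 together it was 10 of 51 (background 3.19%), with 5 higher (1.42%) and 5 lower (1.76%).

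Among the organic anion transporters of the basolateral and apical membrane, 2 of 6 tested genes rose and none fell in the comparison of all libraries, with a median of -0.19. Slc22a13 (ENSMUSG00000074028, chromosome 9, 119192974 to 119209098) encodes OAT10, described in humans as a carrier of urate and nicotinate. It stood at 98.2, 86.8, 90.0 and 110 CPM in dKO1 to dKO4, against 55.2, 51.7, 66.8 and 59.4 CPM in WT1 to WT4. Every dKO library lay above every WT library, and the log2 fold change was 0.73 (SE 0.10, adjusted p = 0.00627). This call held in all 18 alternative settings, with an adjusted p of at most 0.031. The neighbouring Slc22a13b-ps, annotated as a polymorphic pseudogene and the gene with which Slc22a13 shares the most sequence, moved the other way. It stood at 0.575, 0.347, 0.483 and 1.21 CPM in dKO, against 4.51, 6.10, 6.91 and 6.19 CPM in WT (log2 fold change -3.18, SE 0.33, adjusted p = 0.000866). Transcripts of Slc22a13 share 21.8% of their 100-base stretches with other genes, so that the counting could have moved reads between the pair. The sum of both was 87.1 to 111 CPM in dKO, against 57.8 to 73.7 CPM in WT, and did not overlap either. Since the dKO label names no strain, a difference in genetic background at this pair could not be told apart from the genotype.

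Slc22a8 (ENSMUSG00000063796, chromosome 19, 8591254 to 8611834) encodes OAT3, a basolateral exchanger of organic anions for dicarboxylates. It stood at 635, 533, 663 and 604 CPM in dKO, against 438, 389, 372 and 426 CPM in WT. The groups did not overlap, and the log2 fold change was 0.58 (SE 0.10, adjusted p = 0.018). The fold change was 0.56 without dKO1 (adjusted p = 0.00738). The call was lost without WT2, WT3 or WT4, where the adjusted p was 0.0584, 0.0704 and 0.0571.

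Slc22a6 encodes OAT1, the other basolateral exchanger of this kind and the neighbour of Slc22a8 on chromosome 19. It stood at 497, 1518, 1132 and 1401 CPM in dKO, against 1450, 1568, 1543 and 1579 CPM in WT. It was low in dKO1, did not follow Slc22a8 there, and was not called (log2 fold change -0.43, SE 0.29, adjusted p = 0.499). Slc22a12 was likewise low in dKO1, with 396, 1464, 1395 and 1230 CPM in dKO, against 1437, 1845, 1642 and 1546 CPM in WT (adjusted p = 0.499). Its deposited span lies inside that of Nrxn2 on the opposite strand, and the sources used here do not state whether counting used strand. Slc22a22, the prostaglandin-specific OAT-PG, stood at 25.7, 101, 102 and 93.5 CPM in dKO, against 125, 115, 125 and 128 CPM in WT. It was not called over all libraries (adjusted p = 0.477) and fell without dKO1 (log2 fold change -0.32, SE 0.08, adjusted p = 0.043), in 1 of 18 alternative settings. The log2 fold change was -0.27 without dKO1 and the library labelled dKO4 (adjusted p = 0.172). Slc22a7 (OAT2) stood at 158 to 388 CPM in dKO and 202 to 367 CPM in WT, with a 95% interval of the log2 fold change from -0.58 to 0.70.

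The promoter regions of Slc22a6 and Slc22a8 are shown because the pair lies side by side and was read at opposite sides of the WT range in dKO1. The 250 bases before the RefSeq start of each (GRCm38.p6, plus strand) are chr19:8617746-8617995 for Slc22a6 and chr19:8592932-8593181 for Slc22a8, whose start lies 1928 bases inside the deposited span. Capitals mark the letters GTTAAT, searched on both strands and held by both regions.
Slc22a6: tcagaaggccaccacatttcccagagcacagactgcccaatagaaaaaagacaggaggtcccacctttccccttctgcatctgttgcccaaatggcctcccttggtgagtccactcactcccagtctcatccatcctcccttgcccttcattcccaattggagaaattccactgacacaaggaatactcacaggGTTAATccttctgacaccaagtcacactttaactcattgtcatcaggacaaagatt
Slc22a8: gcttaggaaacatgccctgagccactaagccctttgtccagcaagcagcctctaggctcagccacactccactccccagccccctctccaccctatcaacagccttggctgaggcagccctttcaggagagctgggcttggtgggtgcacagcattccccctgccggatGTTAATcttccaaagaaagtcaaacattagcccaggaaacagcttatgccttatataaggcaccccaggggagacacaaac
Of 43 transporter genes with a promoter in the RefSeq table, 3 held these letters (Slc22a6, Slc22a8 and Slc22a29), 6.98% against 6.52% of 27025 promoters. The HNF4 letters CAAAGT were in 11 of the 43 (25.6%), against 12.5% of all promoters, and the letters TGTTCT of steroid receptors in 6 of the 43, against 16.2%. These are matches of letters and not binding sites.

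The rodent OAT cluster on chromosome 19 holds Slc22a19, Slc22a26, Slc22a27, Slc22a28, Slc22a29 and Slc22a30, organic anion transporter genes expanded in rodents. None of its 5 tested members was called over all libraries, and their median log2 fold change was -0.05. Slc22a30 (8335371 to 8405111) had 35 reads in dKO1. It stood at 1.55, 185, 168 and 193 CPM in dKO, against 279, 297, 334 and 318 CPM in WT. All 4 dKO libraries lay below WT, with dKO1 far below the others. The log2 fold change was -1.17 with an SE of 1.02 and an adjusted p of 0.635, and without dKO1 it was -0.76 with an SE of 0.09 and an adjusted p of 0.000692.

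Slc22a28 (8062209 to 8131982) stood at 7.74, 142, 151 and 147 CPM in dKO, against 163, 184, 191 and 175 CPM in WT. The groups did not overlap, and it was not called with dKO1 (adjusted p = 0.721) or without it (adjusted p = 0.0821). Slc22a29 (8160165 to 8218900), between these genes, ran the other way. It stood at 25.5, 4.27, 8.26 and 5.94 CPM in dKO, against 1.45, 2.09, 2.28 and 1.25 CPM in WT. Every dKO library lay above WT, with dKO1 highest. The log2 fold change was 2.65 (SE 0.60, adjusted p = 0.0652) over all libraries, and without dKO1 it was 1.81 (SE 0.27, adjusted p = 0.00398). It was also called without dKO2 (adjusted p = 0.0384). Slc22a26 stood at 1.95, 26.6, 40.9 and 26.1 CPM in dKO, against 26.3, 22.5, 27.1 and 23.2 CPM in WT, so that only dKO1 lay outside the other values on the low side. Slc22a19 (OAT5, an apical carrier) stood at 109, 109, 151 and 122 CPM in dKO and 116 to 137 CPM in WT.

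The promoter regions of Slc22a28, Slc22a30 and Slc22a29 are shown because these neighbours share sequence and lay on opposite sides of WT in dKO. They are the 250 bases before the RefSeq start (GRCm38.p6, minus strand), at chr19:8131983-8132232, chr19:8405106-8405355 and chr19:8218901-8219150, that of Slc22a30 reaching 6 bases into the deposited span. Capitals mark stretches of 12 or more bases found in all 3 regions.
Slc22a28: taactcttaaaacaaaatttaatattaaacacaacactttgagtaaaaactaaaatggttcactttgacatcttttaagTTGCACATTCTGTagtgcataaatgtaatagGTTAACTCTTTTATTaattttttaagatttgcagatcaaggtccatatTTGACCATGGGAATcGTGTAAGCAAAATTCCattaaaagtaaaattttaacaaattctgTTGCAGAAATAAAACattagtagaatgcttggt
Slc22a30: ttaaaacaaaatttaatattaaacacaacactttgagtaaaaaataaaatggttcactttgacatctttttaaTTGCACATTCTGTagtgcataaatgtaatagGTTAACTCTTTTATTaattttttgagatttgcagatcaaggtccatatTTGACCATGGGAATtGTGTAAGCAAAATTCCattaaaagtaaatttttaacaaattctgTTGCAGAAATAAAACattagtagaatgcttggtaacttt
Slc22a29: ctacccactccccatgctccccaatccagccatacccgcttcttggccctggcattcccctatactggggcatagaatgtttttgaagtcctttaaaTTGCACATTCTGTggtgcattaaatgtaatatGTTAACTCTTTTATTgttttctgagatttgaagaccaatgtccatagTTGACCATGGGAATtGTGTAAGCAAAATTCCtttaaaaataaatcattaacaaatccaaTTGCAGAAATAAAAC
After global alignment, 95.2% of the 250 bases were identical between Slc22a28 and Slc22a30, 73.2% between Slc22a28 and Slc22a29, and 72.8% between Slc22a29 and Slc22a30. Between 37 transporter genes outside the cluster, the same alignment gave 47.6% to 65.6%. The capital stretches cover 73 bases in each region. The transcripts are also alike, since Slc22a28 shares 37.0% of its 100-base stretches with other genes, most of them with Slc22a30, and Slc22a29 shares 7.51%, most of them with Slc22a27. Reads of Slc22a28 and Slc22a30 may therefore have been divided between the pair.

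Among organic cation transporters and MATE exporters, all 4 tested genes had negative fold changes, with a median of -0.41, and none was called. Slc22a2, encoding the basolateral cation carrier OCT2, stood at 177, 423, 396 and 415 CPM in dKO, against 478, 551, 530 and 492 CPM in WT. The groups did not overlap, and dKO1 was the lowest. It was not called over all libraries (adjusted p = 0.293) and fell without dKO1 (log2 fold change -0.32, SE 0.08, adjusted p = 0.0495), in 1 of 18 alternative settings. The adjusted p was 0.129 without dKO1 and the library labelled dKO4. Slc47a1, the apical proton exchanger MATE1, stood at 485, 842, 698 and 762 CPM in dKO, against 902, 841, 832 and 796 CPM in WT (adjusted p = 0.411).

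None of the 3 tested carnitine and zwitterion transporters was called. Slc22a4, the ergothioneine carrier OCTN1, stood at 66.9, 82.9, 63.5 and 77.1 CPM in dKO, against 108, 83.3, 91.3 and 88.7 CPM in WT, with no overlap (log2 fold change -0.35, SE 0.11, adjusted p = 0.132). Slc22a5, the carnitine carrier OCTN2, stood at 239 CPM in dKO1 and 351 to 377 CPM in dKO2 to dKO4, against 298 to 341 CPM in WT, so that dKO1 lay below and the other dKO libraries above WT. Among 5 other Slc22a genes none was called over all libraries in the edgeR test. Slc22a23, whose substrates are unknown, stood at 169, 115, 107 and 168 CPM in dKO, against 109, 69.2, 87.3 and 87.2 CPM in WT (log2 fold change 0.66, adjusted p = 0.104). Of the 18 alternative settings, only DESeq2 called Slc22a23 (adjusted p = 0.0153). Slc22a18 stood at 390 to 650 CPM in dKO and 564 to 666 CPM in WT.

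All 3 tested Slco1 genes, which encode OATP carriers of steroid conjugates and bile acids and lie side by side on chromosome 6, had negative fold changes with a median of -1.12, and 2 of them fell. Slco1a6 (ENSMUSG00000079262, 142085761 to 142208521) stood at 125, 199, 176 and 204 CPM in dKO, against 296, 280, 283 and 278 CPM in WT. The groups did not overlap, and the SD was 36.0 CPM in dKO and 7.95 CPM in WT. The log2 fold change was -0.69 (SE 0.14, adjusted p = 0.032). The call was kept without dKO1 (log2 fold change -0.56, adjusted p = 0.00231), and lost without WT1, WT2, WT3, WT4 or dKO3, where the adjusted p was 0.0821, 0.0868, 0.0973, 0.0913 and 0.0688. Slco1a4 (ENSMUSG00000030237, 141805440 to 141856199) was low, at 1.59, 1.62, 1.73 and 2.59 CPM in dKO, against 5.40, 3.96, 3.87 and 3.06 CPM in WT. The log2 fold change was -1.12 (SE 0.24, adjusted p = 0.0414), and the call was lost without dKO2 (adjusted p = 0.0865), dKO3 (adjusted p = 0.0881) or any WT library (adjusted p from 0.0607 to 0.109).

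Slco1a1 (ENSMUSG00000041698, 141907282 to 141946962), the most abundant Slco gene in WT, encodes an apical OATP of the proximal tubule. It stood at 0.177 CPM in dKO1, from 4 reads, and at 309, 162 and 277 CPM in dKO2 to dKO4, against 1032, 774, 913 and 762 CPM in WT. All dKO libraries lay below WT. Over all libraries the log2 fold change of -2.22 had an SE of 1.27 and was not called (adjusted p = 0.449). Without dKO1 it was -1.81 (SE 0.22, adjusted p = 0.00372), and without dKO1 and the library labelled dKO4 it was -1.88 (adjusted p = 0.0111). This was the largest fall among the named transporters in both fits without dKO1.

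Of the 5 tested genes of Slco2 to Slco6, none was called over all libraries. Slco3a1, which carries prostaglandins and thyroid hormone, stood at 71.7, 247, 194 and 252 CPM in dKO, against 307, 330, 337 and 333 CPM in WT, and fell without dKO1 (log2 fold change -0.50, SE 0.10, adjusted p = 0.0154). Slco2a1, the prostaglandin transporter, lay above WT in every dKO library, at 72.6, 50.0, 53.4 and 44.3 CPM in dKO, against 41.7, 39.8, 40.1 and 37.5 CPM in WT, and was not called (log2 fold change 0.47, SE 0.14, adjusted p = 0.115). Slco4a1, a thyroid hormone carrier, stood at 64.3 CPM in dKO1 and 26.3 to 29.1 CPM in dKO2 to dKO4, against 19.3 to 30.7 CPM in WT.

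**Figure D3:**
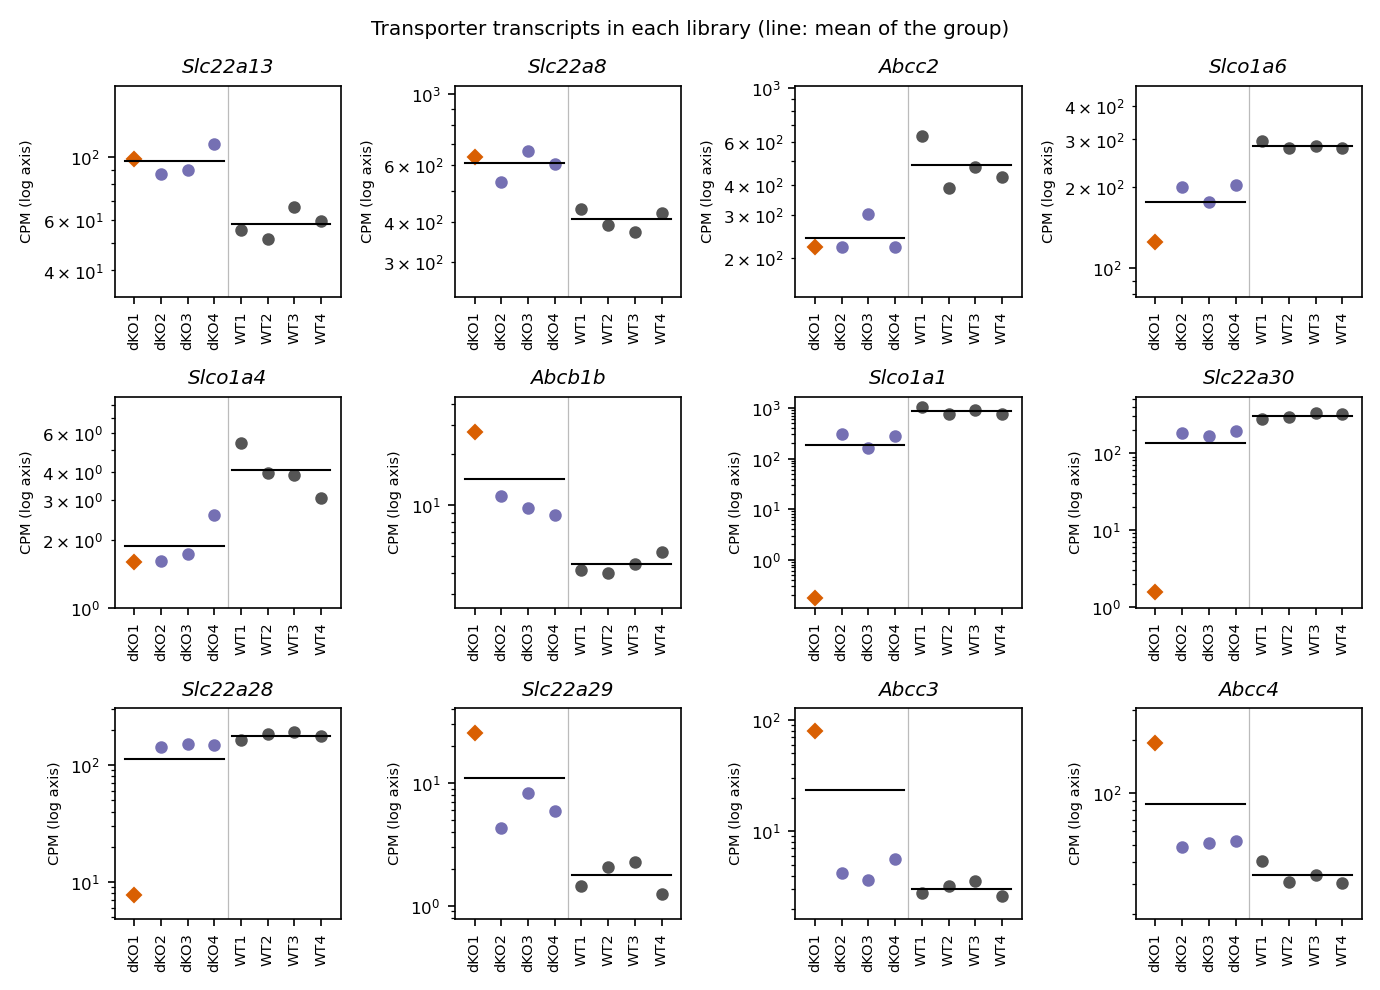
CPM (log axis) of 12 transporter genes in each library, dKO left and WT right in each panel. The diamond is dKO1 and horizontal lines are group means. In the first 5 panels, the called genes, no dKO library overlaps the WT libraries. Slco1a1, Slc22a30 and Slc22a28 stood at 0.177, 1.55 and 7.74 CPM in dKO1, and Slc22a29, Abcc3 and Abcc4 at 25.5, 79.7 and 192 CPM.

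Among the ABC exporters, Abcc2 (ENSMUSG00000025194, chromosome 19, 43782192 to 43840740) encodes MRP2, the apical exporter of glutathione and glucuronide conjugates. It stood at 223, 222, 304 and 222 CPM in dKO, against 634, 389, 472 and 429 CPM in WT. The groups did not overlap, the dKO mean was lower by 0.99 on the log2 scale (log2 fold change -0.99, SE 0.17, adjusted p = 0.0168), and dKO1 lay with the other dKO libraries. The call was lost without WT3 (adjusted p = 0.0542), and without dKO1 and the library labelled dKO4 together (log2 fold change -0.87, adjusted p = 0.0656).

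Of the 7 tested Abcc multidrug resistance proteins, Abcc2 was the only one with a negative fold change, and the other 6 were positive (list median 0.25). Abcc4, the apical exporter MRP4 of nucleotides and organic anions, stood at 192, 48.5, 51.6 and 52.7 CPM in dKO, against 40.3, 30.5, 33.6 and 30.1 CPM in WT. The groups did not overlap, and it was not called over all libraries (log2 fold change 1.36, SE 0.49, adjusted p = 0.224) but rose without dKO1 (log2 fold change 0.60, SE 0.11, adjusted p = 0.0104). Abcc3, the basolateral exporter MRP3, stood at 79.7, 4.22, 3.62 and 5.61 CPM in dKO, against 2.78, 3.21, 3.59 and 2.61 CPM in WT. Its log2 fold change of 2.94 (SE 1.21, adjusted p = 0.291) rested on dKO1, without which it was 0.55 (SE 0.21, adjusted p = 0.209).

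Abcb1b, one of the genes of P-glycoprotein, stood at 27.3, 11.3, 9.71 and 8.75 CPM in dKO, against 4.18, 3.96, 4.49 and 5.33 CPM in WT. Every dKO library lay above WT, and the log2 fold change was 1.67 (SE 0.36, adjusted p = 0.0523) over all libraries, 1.14 (SE 0.16, adjusted p = 0.00258) without dKO1 and 1.85 (adjusted p = 0.0339) without the library labelled dKO4. Its paralog Abcb1a stood at 5.48 to 7.83 CPM in dKO and 3.74 to 6.79 CPM in WT (log2 fold change 0.33, adjusted p = 0.449). The transcripts share 6.04% of the 100-base stretches of Abcb1b, so that a small part of the reads may have been exchanged. The 5 tested Abcb genes of mitochondria and lysosomes held a median of -0.09, and none was called. Abcb8, of mitochondria, stood at 78.5 to 101 CPM in dKO and 90.5 to 98.3 CPM in WT. Abcb9, of the lysosome, stood at 12.7 to 16.6 CPM in dKO and 10.9 to 11.3 CPM in WT, with no overlap and an adjusted p of 0.13.

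No Abcg gene was called. Abcg2 (BCRP), the urate and drug exporter, stood at 325, 447, 464 and 392 CPM in dKO, against 446, 457, 437 and 420 CPM in WT, with a 95% interval of the log2 fold change from -0.37 to 0.15. Abcg1, a cholesterol exporter, stood at 18.9, 6.53, 9.95 and 10.2 CPM in dKO, against 5.96, 6.69, 6.08 and 8.06 CPM in WT (adjusted p = 0.208). The sulfonylurea receptor genes of potassium channels were at low levels: Abcc9 at 14.9 to 24.4 CPM in dKO and 17.0 to 22.5 CPM in WT, and Abcc8 at 0.165 to 0.578 CPM in dKO and 0.227 to 0.501 CPM in WT.

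**Figure D4:**
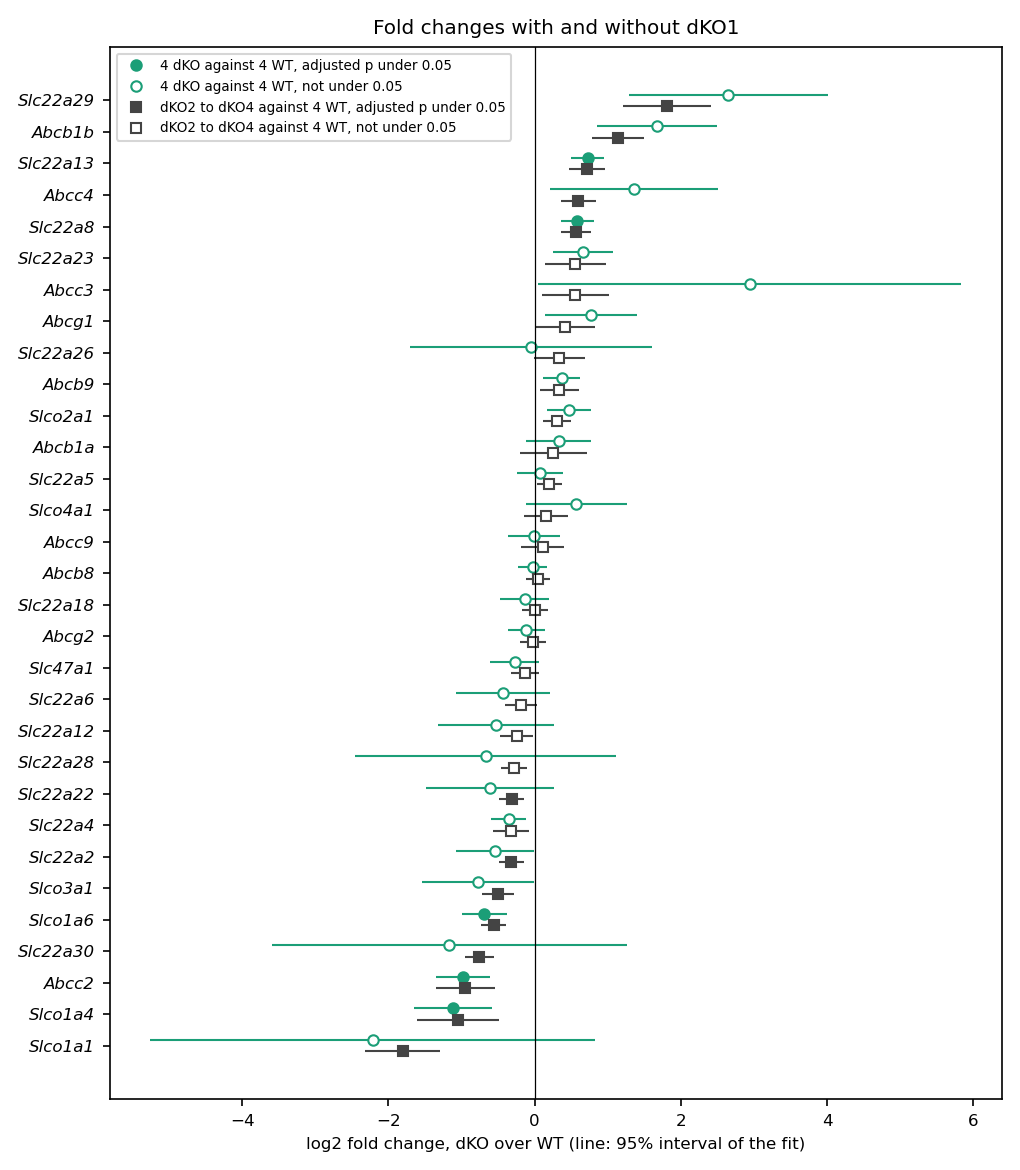
Log2 fold change of dKO over WT for 31 named transporters that were tested, with the 95% interval of the fit, over all 8 libraries (circles) and without dKO1 (squares). Filled symbols have an adjusted p under 0.05. The interval of Slco1a1 runs from -5.26 to 0.82 with dKO1 and from -2.32 to -1.29 without it, and the calls number 5 with dKO1 and 13 without it.

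The library dKO1 was the lowest of the 8 libraries for 26 of the 49 tested transporters (53.1%), against 22.3% of all tested genes. It was the highest for 12 (24.5%), near the 24.0% of all tested genes. Its log2 CPM lay at least 2 away from the mean of the other 7 libraries for 9 transporters (18.4%), against 1.92% of all genes. No transporter lay that far out in dKO2, dKO3 or the library labelled dKO4, and Slco1a1 did in each WT library, where dKO1 is among the other 7. The low ones in dKO1 were Slco1a1, Slc22a30, Slc22a28, Slc22a26 and Slc22a22, and the high ones Abcc3, Slc22a29, Abcc4 and Abcb1b. Transporters took 0.59% of the reads of dKO1 and 0.895% to 0.964% in dKO2 to dKO4, against 1.02% to 1.05% in WT.

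Genes outside these families that are known to differ between male and female mouse kidneys were read beside the transporters. The summed level of 8 male-biased genes was 3508 CPM in dKO1 and 20120 to 22400 CPM in dKO2 to dKO4, against 29250 to 34080 CPM in WT. Kap was the largest part of this sum. It stood at 2415 CPM in dKO1 and 12980 to 15730 CPM in dKO2 to dKO4, against 17880 to 21320 CPM in WT. Cyp2j13 stood at 0.133 CPM in dKO1. Over all libraries 1 of the 8 was called. This was Odc1, the first enzyme of polyamine synthesis, which was low in every dKO library, at 548, 756, 466 and 495 CPM in dKO, against 2466, 3344, 3052 and 2611 CPM in WT (log2 fold change -2.34, adjusted p = 9.7e-05). The summed level of 3 female-biased genes was 523 CPM in dKO1 and 29.1 to 145 CPM in dKO2 to dKO4, against 9.19 to 23.3 CPM in WT. Without dKO1, 5 of the 8 male-biased genes fell and 1 rose (Cyp7b1, log2 fold change 0.77, adjusted p = 0.00306), and none of the female-biased genes was called. Without dKO1 and the library labelled dKO4, 3 male-biased genes fell and 1 rose. In that fit 1 female-biased gene was called, Slc7a12, which rose (log2 fold change 3.48, adjusted p = 0.0196). Without only the library labelled dKO4, 1 was called, Cyp4a14, which rose (log2 fold change 3.52, adjusted p = 0.0387). The part of these differences in the transporter results was not tested.

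Markers of kidney cell types were read in the same fits. Proximal tubule markers had a median log2 fold change of -0.10 with 0 of 10 called over all libraries, and -0.01 with 1 higher and 1 lower without dKO1. Over all libraries, 4 of these fold changes were positive and 6 negative. The marker Slc7a13 of the late proximal tubule stood at 0.354 CPM in dKO1 and 674 to 858 CPM in dKO2 to dKO4, against 750 to 955 CPM in WT. Slc5a2 ran the other way, at 570 to 724 CPM in dKO, against 428 to 531 CPM in WT. Without dKO1 it rose (log2 fold change 0.41, adjusted p = 0.0482), and Acsm2 fell (log2 fold change -0.36, adjusted p = 0.0331). The 7 tested principal cell markers were all positive (1 higher, median 0.52), and their sum was 1998 CPM in dKO1 and 880 to 975 CPM in dKO2 to dKO4, against 680 to 791 CPM in WT. The 8 intercalated cell markers summed to 63.8 to 81.2 CPM in dKO1 to dKO3 and 541 CPM in the library labelled dKO4, against 352 to 420 CPM in WT. None of the 8 was called over all libraries, whereas 7 fell without the library labelled dKO4 (median log2 fold change -4.97), Atp6v0d2 being the exception (adjusted p = 0.222). Aqp6 and Atp6v1g3 were at 0 reads in dKO1 and dKO3. The 6 thick ascending limb markers were all positive (median 0.41), and their sum was 4314 to 5221 CPM in dKO and 3636 to 4073 CPM in WT. The 7 endothelial markers had a median of 0.17, and none was called. Their part in the transporter results was not tested.

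Of 12 tested regulators and scaffolds of drug transporters none was called in either direction, with a median of -0.03. Hnf4a, which drives many of these genes in proximal tubule, stood at 633 CPM in dKO1 and 887 to 912 CPM in dKO2 to dKO4, against 893 to 1029 CPM in WT. Of 13 tested partner transporters of anions, urate, nucleosides and peptides none was called over all libraries (median -0.31). Without dKO1, Slc13a3, the basolateral dicarboxylate carrier that supplies the exchange by OAT1 and OAT3, fell by 0.46 on the log2 scale (SE 0.08, adjusted p = 0.00762). It stood at 853, 739, 752 and 682 CPM in dKO, against 948, 1060, 978 and 1008 CPM in WT. Slc51b, a subunit of the organic solute transporter, also fell without dKO1 (log2 fold change -0.52, adjusted p = 0.049). With the library labelled dKO4 left out as well, the adjusted p was 0.0333 for Slc13a3 and 0.124 for Slc51b.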

How the data were processed

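Poly(A) RNA of whole kidneys was measured in 4 dKO and 4 WT samples, the grouping following the labelled genotype. Reads were aligned with HISAT2 2.0.4 and counted with HTSeq 0.9.1, per the submitters' processing notes. No source used here names the genome build. Of 26893 listed genes, 26863 identifiers were in GENCODE vM21 (GRCm38), and all 56 transporter genes overlapped their annotated positions, 52 of them identically. The authors deposited raw counts per gene, a signal column per library (counts divided by a size factor) with its mean per group, and FPKM values relative to gene length and scaled library size. The signal columns and the authors' own fold changes and p-values were not used. The single Tsc1 knockout is not analysed here.

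Counts were tested in R 4.3.3 with edgeR 4.0.16 (filterByExpr with minimum count 10 and minimum total 15, TMM, robust quasi-likelihood test, two-sided, Benjamini-Hochberg over 15912 genes, threshold 0.05). SE is the size of the log2 fold change divided by the square root of F, and intervals cover 95%. The script was tested on simulated data. FPKM served only to compare levels between genes, for the sums over families in each library, and in 2 alternatives. The labels do not tie each sample to an animal of its own, and the p-values then reflect only the spread among these samples, while floors cover counting error only. Since batch, litter and sex are not labelled, the fits had no covariate. Sex as read from Xist and Y-linked genes differed only in dKO1, and it was handled only by leaving that library out. No 2 libraries held identical counts.

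Transporters were named if they passed the threshold with all libraries or without dKO1, the library labelled dKO4 or both, if they were among the 2 most abundant of their role list, if they reached 1 FPKM and did not overlap between groups, or if they were among the 6 farthest out in dKO1. From every other list up to 3 genes were taken by adjusted p. Hnf4a, Slc7a13, Cyp2j13, Cyp7b1, Aqp6, Atp6v1g3, Slc22a7, Slc22a19, Slc22a13b-ps and the genes outside the filter were named after their values were seen. Some genes that these rules took are not reported here. The members and lists were chosen with earlier results of these data known. The alternatives tried were DESeq2 1.42.0, limma-voom (limma 3.58.1), upper-quartile and RLE factors, other filters, non-robust estimation, log2(FPKM + 1) and log2(FPKM + 0.1), and libraries left out.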

Additional observations from a re-analysis of the deposited data

Results flagged for a closer look

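Of 64 groups of 4 libraries (32 named transporters in each genotype), 11 had a highest or lowest library whose gap to the nearest other, divided by the range of the group, was above Dixon's critical value. Of these, 8 were in dKO1. Chance flags about 1 in 20 groups of unselected genes, but some of these transporters were named for their values in dKO1, so that this rate is no measure for them. High in dKO1 were Abcb1b at 27.3 CPM (8.75 to 11.3 in dKO2 to dKO4), Abcc3 at 79.7 CPM (3.62 to 5.61), Abcc4 at 192 CPM (48.5 to 52.7) and Slco4a1 at 64.3 CPM (26.3 to 29.1). Low in dKO1 were Slc22a22 at 25.7 CPM (93.5 to 102), Slc22a2 at 177 CPM (396 to 423), Slc22a28 at 7.74 CPM (142 to 151) and Slc22a30 at 1.55 CPM (168 to 193). The remaining ones were Abcc2 in dKO3 at 304 CPM (222 to 223 in the other dKO libraries), Slco1a4 in the library labelled dKO4 at 2.59 CPM (1.59 to 1.73) and Abcb9 in WT2 at 10.9 CPM (11.2 to 11.3 in the other WT libraries).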

How the results depend on the processing

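Each library left out in turn gave 1 to 13 called transporters in place of 5, where 0.850% to 3.90% of all genes were called. Of these, 1 to 5 were higher and 0 to 8 lower, in place of 2 and 3. The median log2 fold change was -0.08 to 0.01. The count was highest without dKO1 and lowest without WT3, where 0 transporters fell, and the cause was not tested. Without dKO1 and the library labelled dKO4 together, 10 were called (3.19% of all genes), 5 higher (1.42%) and 5 lower (1.76%). DESeq2 called 9 (4.94% of all genes), with 6 higher (2.58%), and non-robust estimation called 7 (2.31%), with 4 higher (1.17%). Both called Slc22a29 and Abcb1b, and DESeq2 also called Slc22a23. RLE and upper-quartile factors, limma-voom and a minimum of 1 CPM in 4 libraries gave 5 calls each, no filter on low counts 6, and the FPKM alternatives 4 each, where 1.69% to 2.42% of all genes were called. Slc22a13 was called under all 18 alternatives, Abcc2 under 16, Slc22a8 under 15, Slco1a6 under 12 and Slco1a4 under 11. Directions turned only for transporters that were not called. With each library left out in turn, Abcb8 ran from -0.070 to 0.042, Abcc9 from -0.11 to 0.11, Slc22a18 from -0.21 to 0.0024 and Slc22a26 from -0.45 to 0.34, the upper end being without dKO1 in each. Without dKO1 and the library labelled dKO4, Slc22a26 was at 0.45, Abcc9 at 0.22, Abcb8 at 0.096, Abcg2 at 0.052 and Slc22a18 at 0.030. Abcc9 was at 0.00041 with upper-quartile factors. No paired analysis was possible because the labels give the groups no shared replicate numbers. The depth limits the 7 genes outside the filter, which had at most 1.55 CPM in any library.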
